A study of Mus musculus with 70 samples.

Results

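The miR-135 family comprised 4 of the 1882 features kept from the count table, namely mmu-miR-135a-5p, mmu-miR-135b-5p, mmu-miR-135a-1-3p and mmu-miR-135a-2-3p, taken by name and written without the species prefix from here on. Small RNA was sequenced from brain cells of wild-type C57BL/6 mice of both sexes, taken at 6 days (P6) or 15 days (P15) after birth or as adults of 8 weeks. CD45+ cells of a brain that were captured by immunopanning on antibody-coated dishes, called microglia here, and the remaining CD45- cells, called bulk cells, gave 1 library each. The labels give no transgene or treatment, and CD45 is also carried by other leukocytes. The analysis covered 68 libraries of 34 mice (10 at P6, of which 4 were female, 12 at P15 and 12 at 8 weeks, with 6 of each sex).

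The family was chosen by a measured value, the lower level of miR-135a-1-3p in P15 than in P6 microglia. Differences between ages in microglia are therefore given as a description without a test. Differences between cell types, between ages in bulk cells and between the sexes were tested, but the cell type comparison uses the same microglial libraries.

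MicroRNAs are short RNAs that guide Argonaute proteins to messenger RNAs, mainly through their seed, the stretch from base 2 to base 8. A hairpin precursor gives 2 arms, 5p and 3p, of which usually 1 is loaded and the other is largely degraded. The miR-135 5p arms are expressed in brain and are known to repress Apc, a brake on Wnt signalling, and the serotonin transporter Slc6a4 in serotonergic neurons.

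The mature sequences are shown because the loci of the miR-135a hairpins can be told apart by their 3p arms only. RefSeq (GRCm38.p6) held 3 of the 4 members, and the other arm of the miR-135b hairpin, miR-135b-3p, is added as a non-member. Each is written 5′ to 3′ with the seed in capitals.
miR-135a-5p: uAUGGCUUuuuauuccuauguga
miR-135a-1-3p: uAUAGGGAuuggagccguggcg
miR-135a-2-3p: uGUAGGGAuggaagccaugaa
miR-135b-3p: aUGUAGGGcuaaaagccauggg

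The same miR-135a-5p sequence lay in both miR-135a hairpins, at chr9:106154140-106154162 on the plus strand and at chr10:92072141-92072163 on the minus strand, so its counts add up both loci. The 3p arms are specific to a locus, with miR-135a-1-3p at chr9:106154179-106154200 and miR-135a-2-3p at chr10:92072104-92072124. Aligned from the 5′ end without gaps and counted from base 1, they were identical at 15 of 21 bases, and their differences from miR-135a-1-3p to miR-135a-2-3p were A2G, U10G, G12A, G17A, G20A and C21A. The first of these falls in the seed, so the 2 arms carry different seeds.

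In the GENCODE annotation of GRCm38, the build used by the authors, Mir135a-1 (chr9:106154124-106154213) lay in an intron of the antisense RNA gene D030055H07Rik and opposite an untranslated exon of Glyctk, which encodes glycerate kinase. Mir135a-2 (chr10:92072086-92072185) lay in an intron of Rmst, a long non-coding RNA gene on the same strand. Mir135b (chr1:132198088-132198184) lay in an intron of Lemd1 on the same strand, where the gene model AC124108.1 also overlaps. The 3 hairpins thus lay on 3 different chromosomes.

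Library totals ranged from 1678034 to 8747394 counts, so that 3 counts, the floor used here, were worth 0.343 to 1.79 CPM, the unit in which every library sums to the same total. The floor covers counting error only. All 5 myeloid marker miRNAs, among them miR-223-3p and miR-142a-3p, were higher in microglia at every age, with log2 fold changes of at least 5.19. Neuronal marker miRNAs were nevertheless present in microglial libraries, where their summed level had a median of 173011 CPM at P6, 95534 CPM at P15 and 65418 CPM at 8 weeks. The 8 markers include miR-9-5p, which the paper places above miR-124-3p among the most expressed miRNAs of its microglia. The sum therefore leans on miR-9-5p, and single markers went both ways with age, as given below.

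miR-135a-5p was the most abundant member in every group. In microglia its level ran from 2809 CPM over a median of 3991 to 4255 CPM at P6. It ran from 567 over 1149 to 1574 CPM at P15 and from 827 over 1147 to 1667 CPM at 8 weeks. In bulk cells it ran from 6079 over 6711 to 8119 CPM at P6, from 2616 over 3318 to 4024 CPM at P15, and from 3025 over 3325 to 4768 CPM at 8 weeks. Bulk levels were higher than microglial ones at each age without overlap, and both fractions stood highest at P6. Ordered by mean, P6 bulk (6984 ± 708 CPM, SD, n = 10) led, followed by P6 microglia (3809 ± 474, n = 10), 8-week bulk (3479 ± 504, n = 12) and P15 bulk (3318 ± 399, n = 12), and the SD intervals of the last 3 overlapped. The 8-week (1189 ± 283, n = 12) and P15 microglia (1076 ± 352, n = 12) came last, with overlapping SD intervals as well.

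miR-135b-5p followed another course, stepping down at each age. In microglia it ran from 552 over 671 to 1342 CPM at P6, from 96.9 over 277 to 355 CPM at P15, and from 23.6 over 69.0 to 159.6 CPM at 8 weeks. In bulk cells it ran from 1519 over 1898 to 3213 CPM at P6, from 755 over 943 to 1436 CPM at P15, and from 337 over 490.0 to 673 CPM at 8 weeks. The fractions did not overlap at any age. P6 bulk had the highest mean (1991 ± 524 CPM, SD, n = 10). P15 bulk (981 ± 169, n = 12), P6 microglia (748 ± 228, n = 10) and 8-week bulk (492 ± 111, n = 12) followed, with SD intervals that overlapped between neighbours. P15 microglia (244 ± 82.6, n = 12) and 8-week microglia (74.2 ± 33.8, n = 12) stood apart from each other at the bottom.

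The 3p arms were rare. miR-135a-1-3p ran from 14.3 over 35.1 to 46.5 CPM in P6 microglia and from 30.0 over 41.9 to 64.6 CPM in P6 bulk cells. At P15 it ran from 2.17 over 4.14 to 9.18 CPM in microglia and from 4.18 over 5.94 to 10.3 CPM in bulk cells. At 8 weeks it ran from 2.01 over 3.53 to 7.64 CPM in microglia and from 1.02 over 2.50 to 4.56 CPM in bulk cells, where it rested on 5 to 19 counts per library. Both fractions were far above their later levels at P6, and the fractions overlapped at every age. Its lowest group mean was in 8-week bulk cells (2.58 ± 1.02 CPM, SD, n = 12), whose SD interval overlapped that of 8-week microglia (3.80 ± 1.61, n = 12).

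miR-135a-2-3p ran from 16.0 over 19.8 to 31.7 CPM in P6 microglia and from 12.5 over 21.6 to 30.3 CPM in P6 bulk cells, which overlapped almost fully. At P15 it ran from 1.86 over 4.67 to 10.1 CPM in microglia and from 8.23 over 10.4 to 13.5 CPM in bulk cells. At 8 weeks it ran from 3.78 over 4.61 to 7.01 CPM in microglia and from 7.64 over 9.95 to 13.1 CPM in bulk cells, and the fractions no longer overlapped. Within each fraction the SD intervals of P15 and 8 weeks overlapped.

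**Figure D1:**
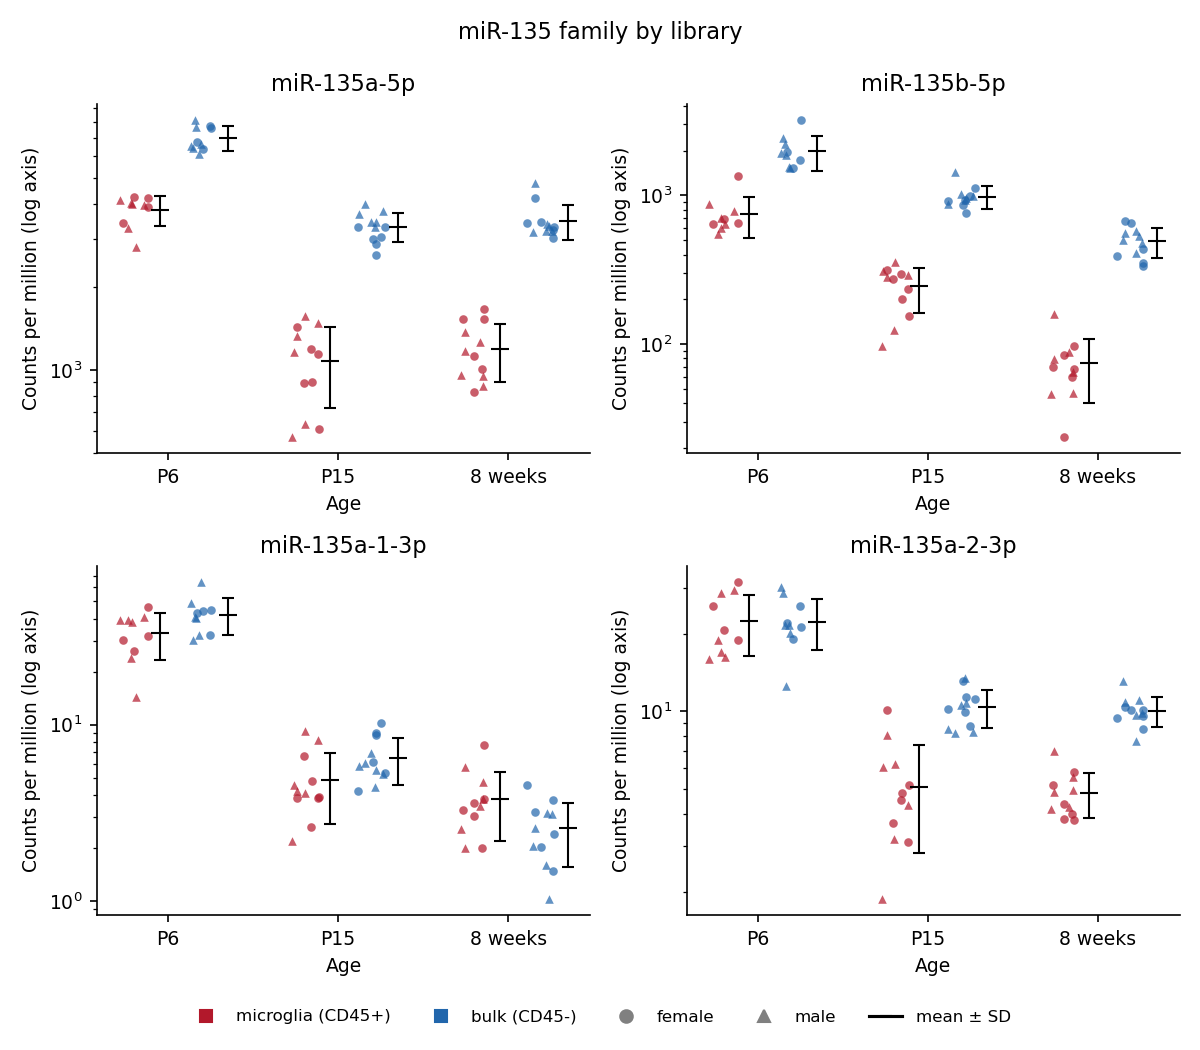
Level of each member in every analysed library, in CPM on a log axis, by age and fraction, with circles for females, triangles for males and bars for the mean ± SD. All 4 members stood highest at P6 in both fractions, and for miR-135a-5p and miR-135b-5p the bulk libraries lay above the microglial ones at each age without overlap.

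The comparison of microglia with bulk cells asked which members belong to the one or the other fraction. Both 5p arms were lower in microglia over the pooled ages, miR-135b-5p more than miR-135a-5p, while no difference of the 3p arms passed. Differences were tested with limma-voom against an absolute log2 fold change of 1, adjusted over 1072 features, and mice are counted on the TMM-scaled log2 CPM of that fit. With ages pooled, miR-135b-5p had a log2 fold change of -2.04 (SE 0.10, 4.11-fold lower, adjusted p = 1.02e-14) and was lower in microglia in 34 of 34 mice. miR-135a-5p had a log2 fold change of -1.32 (SE 0.07, 2.49-fold lower, adjusted p = 2.73e-05) and was lower in 34 of 34 mice. So 2 of the 4 members were called lower, against 21.8% of all tested features, and the median of the members was -0.99 against 0.29 over all features. Of the 3p arms, miR-135a-2-3p was at -0.66 (SE 0.10), lower in 27 of 34 mice, and miR-135a-1-3p at -0.03 (SE 0.14). Without the fold change threshold miR-135a-2-3p passed in limma, edgeR and DESeq2, as did 82.0% to 85.4% of all features.

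Within P6, 1 member was called lower in microglia, against 10.6% of all features. This was miR-135b-5p, at -1.49 (SE 0.18, adjusted p = 0.0151), lower in 10 of 10 mice. With the outlying mouse P6-F6, whose libraries were set aside, it was -1.39 and no longer passed (adjusted p = 0.0577, the highest over its alternatives). The lowest adjusted p of these was 4.10e-13, but they include tests without the fold change threshold, which ask a different question. miR-135a-5p was at -0.96 (SE 0.12, adjusted p = 1), also lower in 10 of 10 mice, and its 95% interval of -1.20 to -0.71 spanned the threshold of the test.

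At P15, 2 members were called lower, against 18.7% of all features. miR-135b-5p was at -1.88 (SE 0.17, adjusted p = 5.07e-06) and miR-135a-5p at -1.49 (SE 0.12, adjusted p = 0.000186), both lower in 12 of 12 mice. At 8 weeks the same 2 were called, against 23.7% of all features, with miR-135b-5p at -2.75 (SE 0.18, 6.73-fold lower, adjusted p = 1.66e-13) and miR-135a-5p at -1.51 (SE 0.12, adjusted p = 7.22e-05). The shares of members called were above these backgrounds, but with 4 members nothing particular to the family can be read from them.

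For the 3p arms, the log2 fold changes of miR-135a-2-3p were -0.06 at P6 (SE 0.14), -0.92 at P15 (SE 0.19) and -1.01 at 8 weeks (SE 0.18), and it was lower in 5 of 10, 10 of 12 and 12 of 12 mice (6, 11 and 12 by unscaled CPM). The values at P15 and 8 weeks passed without the fold change threshold in limma, edgeR and DESeq2, as did miR-135a-5p at P6. Between 62.2% and 75.8% of all features passed these tests at the 3 ages. Those of miR-135a-1-3p were -0.45 in P6 mice (SE 0.16), -0.25 in P15 mice (SE 0.25) and 0.60 in adults (SE 0.29), with an interval of 0.03 to 1.16 at 8 weeks. It was lower in microglia in 10 of 10 mice at P6 (9 by unscaled CPM), where it passed without the threshold in limma only. At 8 weeks it was the one member whose estimate was above 0 in microglia, higher in 9 of 12 mice. That value passed without the threshold in edgeR and DESeq2 but not in limma.

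Beside these differences, all 8 neuronal marker miRNAs (such as miR-124-3p and miR-128-3p) had negative estimates in microglia at each age, and 7 of the 8 passed the test each time. Their log2 fold changes ran from -2.26 to -0.97 at P6, from -2.61 to -1.32 at P15 and from -2.63 to -0.81 at 8 weeks. None of the 8 was at 0 everywhere. Their summed level ran from 100825 to 230931 CPM in P6 microglia against 325700 to 390407 CPM in P6 bulk cells, and from 46710 to 115062 CPM against 206087 to 254914 CPM at 8 weeks. The fold changes of miR-135b-5p at P6 and P15 and of miR-135a-5p at P15 and 8 weeks lay inside the range of these markers. That of miR-135a-5p at P6 lay just above the range, and that of miR-135b-5p at 8 weeks lay below it. Markers of other cell types also differed. The median log2 fold changes at P6, P15 and 8 weeks were -1.80, -3.47 and -4.24 for the oligodendrocyte markers (2, 3 and 3 of 3 called lower), -2.23, -2.73 and -1.93 for the choroid plexus or ependymal markers (3, 4 and 2 of 4 called lower) and -3.26, -3.08 and -2.21 for the endothelial markers (2 of 2 each time). Both erythroid markers were called higher in microglia at each age, and no mural or fibroblast marker was called. The part of RNA of these cell types in the differences was not tested. In such libraries, fewer cells of a type and less RNA per cell cannot be told apart.

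The comparison of ages in bulk cells asked how the family changed in the rest of the brain. miR-135a-1-3p fell steeply from P6 to P15, miR-135b-5p fell over the whole period, and no other member passed the test. Between P6 and P15 the CPM ranges of miR-135a-5p, miR-135b-5p and miR-135a-1-3p did not overlap, against 3.64% of all features that were lower without overlap, and 1 member was called lower, against 1.68% of all features. miR-135a-1-3p had a log2 fold change of -2.87 (SE 0.21, 7.32-fold lower, adjusted p = 2.79e-11). miR-135a-5p was at -1.24 (SE 0.12, adjusted p = 0.393), miR-135a-2-3p at -1.23 (SE 0.15, adjusted p = 0.740) and miR-135b-5p at -1.17 (SE 0.17, adjusted p = 1). These 3 passed without the fold change threshold in limma, edgeR and DESeq2, as did 34.2% to 38.8% of all features.

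Between P15 and 8 weeks no member was called in bulk cells by limma, at an adjusted or an unadjusted p under 0.05, against 4.94% of all features called lower and 6.06% called higher. Without the threshold, limma and edgeR each called 4 of 4 members and DESeq2 called 3, where 50.7%, 49.4% and 48.8% of all features passed. Their estimates differed in sign, with 0.54 (SE 0.12) for miR-135a-5p and 0.44 (SE 0.17) for miR-135a-2-3p against -0.54 (SE 0.17) for miR-135b-5p and -0.87 (SE 0.29) for miR-135a-1-3p. The median over all features was 0.24 in this comparison and -0.23 when libraries were scaled to their total alone, a scaling under which miR-135a-5p was at 0.06, miR-135a-2-3p at -0.03, miR-135b-5p at -1.01 and miR-135a-1-3p at -1.36. Relative to all features, miR-135b-5p and miR-135a-1-3p were lower under both scalings. The CPM ranges were apart for miR-135b-5p only, against 12.3% of all features.

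From P6 to 8 weeks, 2 members were called lower in bulk cells, against 12.4% of all features. miR-135a-1-3p was at -3.74 (SE 0.25, 13.4-fold lower, adjusted p = 3.73e-15) and miR-135b-5p at -1.70 (SE 0.18, 3.26-fold lower, adjusted p = 0.000504). miR-135a-5p was at -0.70 (SE 0.12, adjusted p = 1) and miR-135a-2-3p at -0.79 (SE 0.15, adjusted p = 1), which both passed without the threshold in limma, edgeR and DESeq2, as did 61.1% to 66.2% of all features. Ranges did not overlap for 3 of the 4 members, all but miR-135a-2-3p, against 15.7% of all features.

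In bulk cells the 3 oligodendrocyte marker miRNAs, such as miR-219a-5p and miR-338-3p, rose between P6 and 8 weeks with log2 fold changes of 4.07 to 4.34. Their summed level ran from 1114 to 2852 CPM at P6 and from 16167 to 34040 CPM at 8 weeks. Of the 8 neuronal markers, 1 passed the test as lower and 1 as higher over that time, with estimates from -1.48 to 1.42 and a median of 0.81. Of the 4 choroid plexus or ependymal markers 1 was called lower, with estimates from -6.20 to 0.29, and of the 4 mural or fibroblast markers 2 were called lower and 1 higher, with estimates from -4.24 to 1.91. Of the 2 erythroid markers 1 was called higher between P6 and 8 weeks. Already between P6 and P15 all 3 oligodendrocyte markers were called higher (median 3.34). In that comparison 1 choroid plexus or ependymal marker (from -1.88 to 0.01) and 2 mural or fibroblast markers (from -2.04 to 0.62) were called lower. No neuronal marker was called there. The part of these changes in the age differences of the family was not tested.

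In microglia, as a description, all 4 members were lower at P15 than at P6 without overlap, against 2.52% of all features. This count and the one from P6 to 8 weeks include miR-135a-1-3p, by whose P6 and P15 levels the family was chosen. Neither is read as enrichment. The log2 fold changes were -2.67 (SE 0.24) for miR-135a-1-3p, by which the family was noticed, -2.09 (SE 0.20) for miR-135a-2-3p, -1.77 (SE 0.13) for miR-135a-5p and -1.56 (SE 0.19) for miR-135b-5p. From P15 to 8 weeks no member was lower without overlap, against 4.85% of all features. miR-135a-1-3p was at -0.03 (SE 0.28, from -0.14 to 0.16 with each mouse left out, so without a settled sign). miR-135b-5p was at -1.41 (SE 0.20), miR-135a-2-3p at 0.35 (SE 0.21) and miR-135a-5p at 0.52 (SE 0.13). The positive values depend on the scaling. In unscaled CPM miR-135a-5p had medians of 1149 at P15 and 1147 at 8 weeks (means 1076 and 1189). miR-135a-2-3p had medians of 4.67 and 4.61 (means 5.10 and 4.81). The median log2 fold change over all features was -0.10, and -0.43 with library size alone. Over the whole period from P6 to 8 weeks, all 4 were lower without overlap, against 13.2% of all features, with -2.97 for miR-135b-5p, -2.70 for miR-135a-1-3p, -1.74 for miR-135a-2-3p and -1.25 for miR-135a-5p. Beside these values, the median summed CPM of the neuronal markers in microglia went down with age, as given above, while their single estimates went both ways, from -1.08 to 0.99 between P6 and P15 (median -0.11) and from -1.31 to 1.31 between P6 and 8 weeks (median 0.31), with 0 of 8 called in either. Between P6 and P15, 1 of the 4 choroid plexus or ependymal markers (median -0.91, from -2.80 to 1.39) and 1 of the 4 mural or fibroblast markers (median -0.79, from -2.37 to -0.32) were called lower in microglia. In the same comparison 1 of the 3 oligodendrocyte markers (median 1.36), 1 of the 2 erythroid markers (median 1.74) and 1 of the 5 myeloid markers (median 0.65) were called higher. Between P6 and 8 weeks, 1 choroid plexus or ependymal marker was called lower and 1 higher (from -5.61 to 2.50). Over the same time 2 mural or fibroblast markers were called lower (lowest -4.45, highest 0.99). Of the oligodendrocyte markers 2 of 3 (from 1.30 to 1.85) and of the myeloid markers 1 of 5 (from -1.39 to 2.97) were called higher. Between P15 and 8 weeks, 1 choroid plexus or ependymal marker was called lower (from -2.81 to 1.12) and no other marker was called. The part of these cells in the microglial age differences was not tested.

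**Figure D2:**
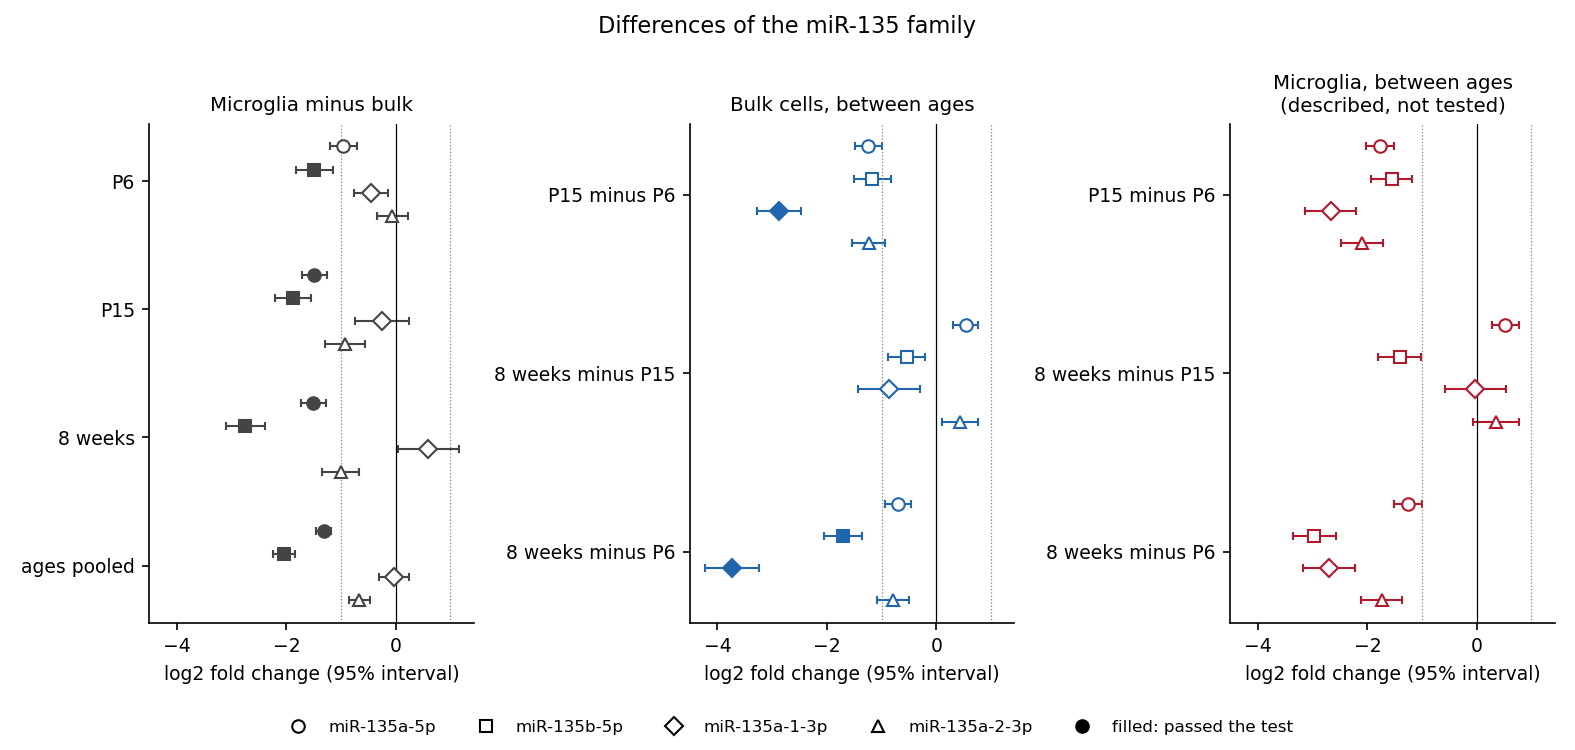
Log2 fold changes of the 4 members with 95% intervals, for microglia minus bulk at each age and pooled (left), between ages in bulk cells (middle) and between ages in microglia (right, described only). Filled symbols passed the limma-voom test against an absolute log2 fold change of 1, whose bounds are the dotted lines. miR-135b-5p was lowest relative to bulk at 8 weeks (-2.75), and miR-135a-1-3p had the lowest bulk values (-3.74 between P6 and 8 weeks).

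The other arm of the miR-135b hairpin, miR-135b-3p, was examined beside miR-135b-5p. In bulk cells its mean was 13.4 ± 4.27 CPM (SD, n = 10) at P6, 4.34 ± 1.25 (n = 12) at P15 and 0.666 ± 0.437 (n = 12) at 8 weeks. It was called lower from P15 to 8 weeks (log2 fold change -2.35, SE 0.40, adjusted p = 0.00716) and from P6 to 8 weeks (-4.03, SE 0.37, adjusted p = 6.69e-11) by limma-voom. The 12 bulk libraries at 8 weeks held 38 counts in all and 8 of them were at or under the floor of 3 counts, so these folds rest on few reads. In microglia its mean was 9.44 ± 3.34 CPM (SD, n = 10) at P6 and 1.35 ± 0.729 (n = 12) at P15, and at 8 weeks 8 of the 12 libraries held no read.

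Ratios of 2 members within 1 library do not depend on scaling, although each sequence's own capture in library preparation stays in them, so only their differences are compared. The ratio of miR-135b-5p to miR-135a-5p asked whether the 5p arms keep step. In bulk cells miR-135b-5p made up 22.0% ± 3.82 (SD, n = 10) of the summed reads of both at P6, 22.8% ± 2.06 (n = 12) at P15 and 12.3% ± 2.03 (n = 12) at 8 weeks. In microglia it made up 16.3% ± 3.23 (n = 10), 18.4% ± 2.41 (n = 12) and 5.78% ± 1.96 (n = 12). The share was lowest at 8 weeks in both fractions. In microglia, as a description, the log2 ratio was 0.23 higher at P15 than at P6 (SE 0.12).

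On the log2 scale, with 0.5 added to each count, the bulk ratio differed by 0.08 between P6 and P15 (SE 0.11, permutation adjusted p = 0.467). At 8 weeks it differed by -1.08 from P15 (SE 0.09) and differed by -1.002 from P6 (SE 0.12), with no overlap between libraries. Both had a two-sided permutation p of 2.00e-05, the smallest that 100000 resamples give, and an adjusted p of 8.00e-05 over the 12 ratio tests. Within a mouse the ratio was lower in microglia than in bulk cells in every mouse, by a difference of -0.54 at P6 (SE 0.04, n = 10, exact sign-flip adjusted p = 0.00260), -0.39 at P15 (SE 0.08, n = 12, exact adjusted p = 0.000732) and -1.26 at 8 weeks (SE 0.13, n = 12, exact adjusted p = 0.000732). The unadjusted p-values, 0.00195 with 10 mice and 0.000488 with 12, are the smallest that the exact test can give. Whether the difference changed with age was not tested.

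The ratio of miR-135a-1-3p to miR-135a-2-3p compares the levels of the 3p arms from the miR-135a loci, in which transcription, arm choice and stability cannot be told apart. In bulk cells miR-135a-1-3p made up 65.1% ± 8.15 (SD, n = 10) of the reads of both 3p arms at P6, 38.1% ± 8.24 (n = 12) at P15 and 20.3% ± 7.13 (n = 12) at 8 weeks. In microglia the shares were 59.0% ± 10.2 (n = 10), 49.1% ± 12.2 (n = 12) and 42.9% ± 7.66 (n = 12). The mean share of the chromosome 9 arm was thus lower at each later age in both fractions, and the microglial means spread over a narrower span. In microglia, as a description, the log2 ratio differed by -0.60 (SE 0.28) between P6 and P15. Between P15 and 8 weeks it differed by -0.35 (SE 0.24), and the libraries overlapped in both comparisons.

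The bulk ratio differed by -1.63 between P6 and P15 (SE 0.22, permutation adjusted p = 0.000120), by -1.30 between P15 and 8 weeks (SE 0.24, permutation adjusted p = 0.000144) and by -2.93 between P6 and 8 weeks (SE 0.25, permutation adjusted p = 8.00e-05), with no overlap in the last. Within mice, microglia were 1.60 higher than bulk cells at 8 weeks (SE 0.21, exact adjusted p = 0.000732), in 12 of 12 mice. At P15 they were 0.64 higher (SE 0.27, exact adjusted p = 0.0474, 10 of 12 mice), a call lost on leaving out any of 10 of the 12 mice, with values of 0.53 to 0.85. At P6 the difference was -0.38 (SE 0.16, exact adjusted p = 0.0469, higher in 3 of 10 mice), which was lost on leaving out any of 7 of the 10 mice, with values of -0.46 to -0.29, and without pairing (adjusted p = 0.163, the highest over its alternatives, of which the lowest gave 0.0188). The tests between fractions at P6 and P15 use the microglial miR-135a-1-3p counts by which the family was chosen. Their p-values are therefore no independent support. The ratios of the 3p arms rest on 13 to 259 reads of both arms per microglial library and on 29 to 735 per bulk library.

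**Figure D3:**
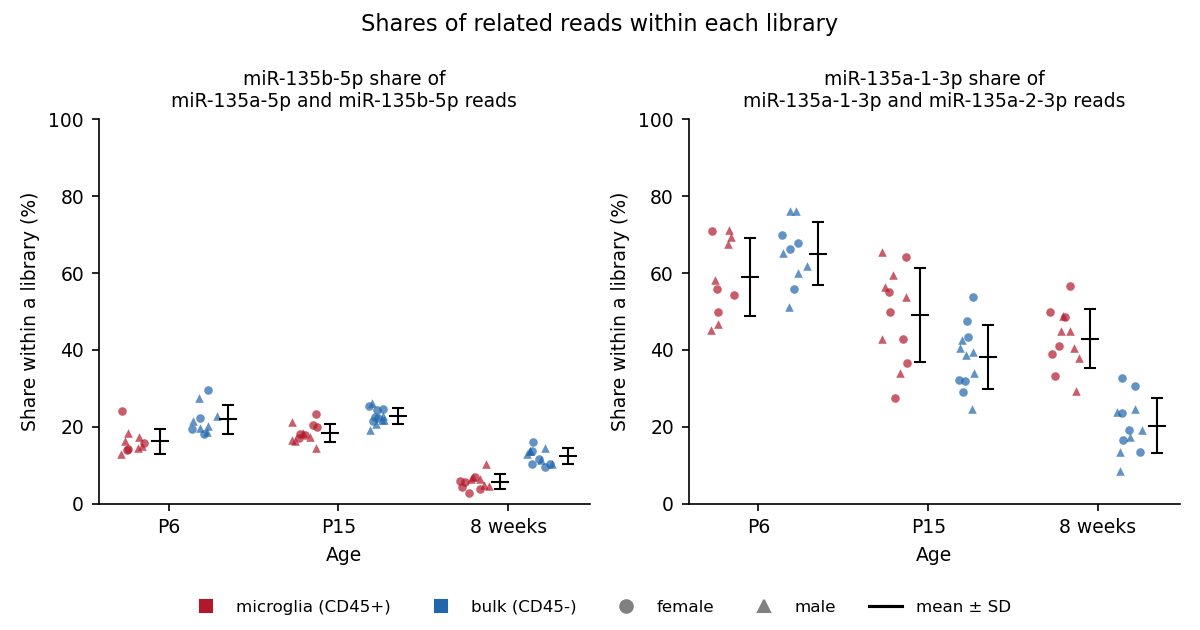
Share of miR-135b-5p in the reads of both 5p arms (left) and of miR-135a-1-3p in the reads of both miR-135a 3p arms (right), in percent within each library, by age and fraction, with the mean ± SD. The left share was lowest at 8 weeks, at 12.3% in bulk cells and 5.78% in microglia, and the right share in bulk cells went from 65.1% at P6 to 20.3% at 8 weeks.

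The sexes were compared within each age and fraction. Of 24 comparisons of a member, limma-voom called 0, and 0 had an unadjusted p under 0.05. Over all features 0% were called in each of these contrasts, so the members equalled the background. Without the threshold limma, edgeR and DESeq2 called 0 members as well. The highest shares of all features called were 1.77%, 2.05% and 1.49%, each in P15 bulk cells. The largest difference in the limma fit was that of miR-135a-1-3p in P15 bulk cells, where males were at -0.48 relative to females (SE 0.36, interval -1.18 to 0.23), and the largest absolute difference with edgeR was 0.62.

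The features whose log2 CPM followed the 5p arms most closely over the 68 libraries are given as a description, since the libraries share fractions, ages and mice. For miR-135a-5p these were miR-335-5p (Pearson r = 0.91), miR-676-3p (0.89), miR-335-3p (0.89), miR-149-5p (0.89) and miR-154-3p (0.88). For miR-135b-5p they were miR-134-5p (0.97), miR-488-3p (0.95), miR-431-5p (0.94), miR-335-5p (0.94) and miR-370-3p (0.94). With each other the 5p arms had r = 0.84. The 10 features above were picked for the highest r, so no rank of the pair follows from them. miR-135a-5p was closer to miR-135a-2-3p (r = 0.85) than to miR-135a-1-3p (r = 0.54).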

How the data were processed

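Small RNA libraries of whole brain cells were made with the MGIEasy chemistry. The deposited values are whole-number read counts for each miRNA in each library, which the authors obtained with fastp 0.20.0 and miRDeep2 from miRBase and mouse genome (mm10/GRCm38) matches. The table had 2029 entries under 1885 names. The entry with the largest total was kept per name, which left 1882 features after 3 duplicate candidates were dropped. miR-135a-5p was listed 2 times, with counts differing by at most 90. Reads matching both near-identical 5p arms may be counted for each, so their levels and ratio are uncertain to that extent.

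Groups came from the sample titles. The authors removed 1 outlying mouse, and P6-F6 was inferred from the libraries in their source data, and both its libraries were set aside. No libraries held identical counts. Features with at least 1 CPM in 5 libraries (1072, all 4 members included) were analysed in R 4.3.3 with TMM scaling (edgeR 4.0.16) and limma-voom (limma 3.58.1). The fit had 12 group means, mouse as a random effect (correlation 0.124) and a test against an absolute log2 fold change of 1 with Benjamini-Hochberg adjustment at 0.05. Both fractions of a mouse are paired by the mouse number in the titles; the mean correlation of their deviations from group means was 0.0739 (-0.0281 to 0.193). Each mouse is a separate animal.

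Within-library ratios used a pseudocount of 0.5, permutation tests over mice (100000 resamples, two-sided) between ages and exact two-sided sign-flip tests within mice. The genes named were the members, miR-135b-3p, the marker miRNAs and the 5 features closest to each 5p arm by Pearson r. The members and lists were chosen with earlier results of these data known. Fits were tested on simulated data. Alternatives were the test without the fold threshold, edgeR, DESeq2 1.42.0, no mouse term, scaling by DESeq2 size factors or by library size alone, testing without a filter on low counts, at least 10 counts in 12 libraries, P6-F6 included, repeated entries summed, a pseudocount of 5, and each mouse left out.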

Additional observations from a re-analysis of the deposited data

Results flagged for a closer look

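In 48 groups of age, sex and fraction for the 4 members, 8 had a mouse far from the others of its group, where chance flags about 1 in 20 groups. For miR-135a-5p in 8-week bulk cells, these were female 8W-F5 (4227 CPM, next 3456) and male 8W-M4 (4768 CPM, next 3390). For miR-135b-5p they were 8W-M3 microglia (159.6 CPM, next 88.5), P15-M6 bulk cells (1436 CPM, next 1022) and P6-F5 microglia (1342 CPM, next 692). For miR-135a-1-3p they were 8W-F1 microglia (7.635 CPM, next 3.78) and P6-F1 bulk cells, which stood low (32.21 CPM, next 43.2). For miR-135a-2-3p it was P15-F2 microglia (10.1 CPM, next 5.18). Leaving out any of these mice changed no call of a member in the comparisons between fractions, ages in bulk cells or sexes.

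The mouse set aside, P6-F6, had more miR-135a-5p than any analysed library of its fraction, with 7855 CPM in microglia and 10940 CPM in bulk cells, and 2128 CPM of miR-135b-5p in microglia.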

How the results depend on the processing

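Of 66 values examined, 40 stayed on their side of the threshold or, where only described, within 1 SD between replicates under every alternative run. The fold change threshold mattered most. Without it, limma called 3 members lower in microglia at P6, 4 in bulk cells from P6 to P15, 2 from P15 to 8 weeks and 4 from P6 to 8 weeks, against 28.4%, 21.0%, 19.0% and 27.4% of all features. edgeR and DESeq2 without it called 2, 4, 2 and 4, against 28.3%, 21.3%, 21.3% and 29.7% (edgeR) and 28.4%, 16.3%, 25.7% and 30.4% (DESeq2). With P6-F6 included, 0 members were called at P6, against 9.07%. Values near 0 changed sign: miR-135a-1-3p with ages pooled was at 0.00665 with edgeR and 0.00102 with DESeq2, and ran from -0.091 to 0.030 with each mouse left out (above 0 without 8W-M3). In microglia from P15 to 8 weeks miR-135a-1-3p was at 0.07 without a filter and 0.08 with the stricter one, and ran from -0.14 to 0.16 with each mouse left out. With library size alone miR-135a-2-3p was at 0.025 between fractions at P6 and -0.034 in bulk cells from P15 to 8 weeks, and between fractions at P6 it ran from -0.23 to 0.021 with each mouse left out (above 0 without P6-F5 or P6-M5). Library size alone also moved the 8-week minus P6 values in microglia to -1.72 for miR-135a-5p and -2.19 for miR-135a-2-3p. Without the mouse as replicate block, the ratio of the 3p arms at P6 (-0.38) no longer passed, and no other call changed. Leaving out each mouse gave differences of that ratio between fractions of -0.46 to -0.29 at P6 and 0.53 to 0.85 at P15. The causes were not tested. The 3p arms rest on few reads at P15 and 8 weeks, which limits small differences there.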
